A study of Mus musculus with 12 samples.

Results

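Mammalian liver turns cholesterol into bile acids with a set of enzymes spread over the endoplasmic reticulum, mitochondria and peroxisomes. The mRNAs of 10 of them were followed here: Cyp7a1, Cyp8b1, Cyp27a1, Cyp7b1, Hsd3b7, Akr1d1, Amacr, Acox2, Slc27a5 and Baat. They were chosen by name for their place in the pathway. All 10 were among the 24532 genes of the count table, and all 10 were among the 13379 genes with enough counts to be tested.

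The libraries came from whole livers of mice aged 20 weeks on a mixed C57BL/6x129S6/SvEv background, with 4 libraries in each of 3 groups. KO_drug livers came from Atp7b-/- mice fed an LXR agonist, KO livers from Atp7b-/- mice without it, and Het livers from heterozygous controls. ATP7B is the copper-exporting ATPase that is lost in Wilson disease, so the knockout is a mouse model of that disease, and LXR is a nuclear receptor activated by oxysterols. The agonist's name, dose and duration, the sex of the mice and the deleted stretch of Atp7b were not given in the labels, and no wild-type or agonist-fed Het group was analysed here. Libraries are named by the group and the number in their titles, which are 1 to 4 in KO_drug and Het and 2, 4, 5 and 6 in KO.

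In the classic pathway Cyp7a1 adds the first hydroxyl group to cholesterol, and this is the rate-limiting step. Hsd3b7, Cyp8b1 and Akr1d1 then modify the sterol rings, and Cyp27a1 starts the oxidation of the side chain. In the alternative pathway Cyp27a1 acts on cholesterol first and Cyp7b1 hydroxylates the resulting oxysterol. In both, peroxisomal enzymes including Amacr and Acox2 take part in shortening the side chain, and Slc27a5 and Baat join the bile acid to taurine or glycine. In mice and rats Cyp7a1 is a known target of LXR, whereas bile acids acting through FXR (Nr1h4) and SHP (Nr0b2) lower its transcription.

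Promoter sequences, from 250 bases before to 50 bases after the transcription start, were found for 5 of the 10 genes in a RefSeq table of the GRCm38.p6 build. The genes Cyp8b1, Akr1d1, Cyp27a1 and Acox2 are shown. They do not cover the course of Cyp7b1, Hsd3b7, Amacr and Baat, which fell in KO versus Het and did not pass in KO_drug versus KO. Akr1d1 and Cyp27a1 were lower in KO than in both other groups, Acox2 was highest in KO_drug and Cyp8b1 passed no test. The windows are chr9:121916256-121916555 (minus strand) for Cyp8b1, chr6:37529923-37530222 (plus) for Akr1d1, chr1:74713285-74713584 (plus) for Cyp27a1 and chr14:8258970-8259269 (minus) for the first annotated start of Acox2, each written 5′ to 3′ along the gene. RefSeq places the Cyp27a1 gene at chr1:74713148-74737897, so its window lies wholly inside the gene. The Akr1d1 gene begins at chr6:37529978, so the start used for its window also lies inside the gene. Positions are counted from the start used for each window. Capitals mark the motifs found.
Cyp8b1: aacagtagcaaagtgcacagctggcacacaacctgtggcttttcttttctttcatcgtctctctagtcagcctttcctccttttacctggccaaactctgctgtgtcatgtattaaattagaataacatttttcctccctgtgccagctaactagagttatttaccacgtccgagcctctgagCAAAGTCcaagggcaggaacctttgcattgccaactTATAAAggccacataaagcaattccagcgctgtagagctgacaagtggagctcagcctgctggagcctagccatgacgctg
Akr1d1: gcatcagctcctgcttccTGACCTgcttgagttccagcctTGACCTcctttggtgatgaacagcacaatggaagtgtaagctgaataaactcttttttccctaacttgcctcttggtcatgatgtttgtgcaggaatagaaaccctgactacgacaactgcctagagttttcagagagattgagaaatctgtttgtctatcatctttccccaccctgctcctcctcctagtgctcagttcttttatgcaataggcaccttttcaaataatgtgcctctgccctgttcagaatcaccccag
Cyp27a1: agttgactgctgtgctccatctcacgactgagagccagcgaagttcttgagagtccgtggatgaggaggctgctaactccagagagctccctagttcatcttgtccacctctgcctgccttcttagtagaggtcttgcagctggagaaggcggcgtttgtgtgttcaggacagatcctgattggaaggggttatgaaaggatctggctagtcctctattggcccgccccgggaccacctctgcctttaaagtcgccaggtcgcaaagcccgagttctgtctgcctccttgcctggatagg
Acox2: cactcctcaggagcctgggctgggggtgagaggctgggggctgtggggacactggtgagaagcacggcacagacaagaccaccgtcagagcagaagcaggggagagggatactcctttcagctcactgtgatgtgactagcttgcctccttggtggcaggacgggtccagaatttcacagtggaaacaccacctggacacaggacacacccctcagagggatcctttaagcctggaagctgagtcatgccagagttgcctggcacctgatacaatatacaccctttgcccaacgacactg

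Both strands were searched for TATAAA, known from core promoters, and CAAAGTC, the core of an HNF4 site. Also searched were GTTAAT, part of HNF1 sites, CACGTG, known as the E-box, and AGGTCA, the hexamer bound by many nuclear receptors. The last motif was AAGGTCA, the extended site of LRH-1, which holds the hexamer within it. The Cyp8b1 window held TATAAA at position -31 and CAAAGTC at position -67 relative to the start. Of 32851 promoters of the same length, 13.6% held TATAAA and 4.44% held CAAAGTC. The Akr1d1 window held AGGTCA on the opposite strand at positions -232 and -210, counted from the start used for its window. This hexamer was present in 16.3% of promoters. AAGGTCA was present in 4.72% of all promoters, GTTAAT in 7.10% and CACGTG in 7.15%. The windows of Cyp27a1, Acox2 (both annotated starts) and Hsd3b7 held none of these letters, which says nothing of factors that bind elsewhere.

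The libraries held 16535938 to 28329751 counts each, and counts of the 10 genes ran from 555 to 21989. Atp7b averaged 2.22 CPM (read counts scaled to library size by the trimmed mean of M-values, TMM) in KO_drug and 2.09 CPM in KO livers, against 12.8 CPM in Het livers, and fell by 2.61 on the log2 scale in KO versus Het (SE 0.32, adjusted p = 5.3e-05). All adjusted p-values are from edgeR's quasi-likelihood test with Benjamini-Hochberg adjustment over all tested genes, and 0.05 was the threshold. A pair of KO libraries stood apart in sex chromosome genes. KO 5 held 81.7 CPM of Xist and KO 6 held 17.8 CPM, while the other 10 libraries held no more than 0.42 CPM. The Y-linked gene Ddx3y was nearly missing from KO 5 (0.38 CPM) and present in KO 6 (64.4 CPM). KO_drug 2 stood apart in some LXR targets: Abcg5, a sterol exporter subunit, was at 79.1 CPM there and at 357 to 411 CPM in the other 3 KO_drug livers, against 36.3 to 75.0 CPM in KO livers. Scd1, a desaturase and LXR target, was nevertheless at 56805 CPM in KO_drug 2, and averaged 60230 CPM in KO_drug, against 2677 CPM in KO livers (log2 change 4.49, SE 0.46, adjusted p = 0.000242). Counts that move by over 1.5 times without these libraries, and enzymes whose calls change, are given with and without them.

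In KO versus Het livers, 8 of the 10 enzymes fell and none rose. The background was 17.7% of all tested genes called lower and 23.0% called higher. The median log2 change of the 10 was -1.07, beside 0.02 over all tested genes. None rose at an unadjusted p under 0.05, and DESeq2 gave 8 lower and 0 higher. Scaled to total counts in place of TMM, however, 3 were called lower and 1 higher, with a median of -0.52, beside 3.44% of all tested genes called lower and 51.5% higher. Without KO 5 and KO 6, 8 were lower and 0 higher, beside 15.6% and 19.5%, with Cyp8b1 in and Cyp7a1 out. With the agonist, in KO_drug versus KO livers, 5 of the 10 rose and none fell, beside backgrounds of 8.80% higher and 11.0% lower. The median log2 change was 0.55, beside -0.02 over all tested genes, and 0.99 without KO 5 and KO 6. Without those libraries 5 rose and 0 fell (backgrounds 8.54% and 10.8%), with Hsd3b7 in and Slc27a5 out, and scaled to total counts 4 rose and 0 fell (2.68% and 29.1%). With no adjustment 6 rose and 0 fell, and DESeq2 called 5 higher and 0 lower. In KO_drug versus Het livers, 3 were lower (Cyp7b1, Amacr and Baat) and Acox2 was higher, beside backgrounds of 8.45% lower and 13.0% higher. Without KO_drug 2 the counts were 5 higher and 0 lower in KO_drug versus KO (backgrounds 6.85% and 7.96%), and 1 higher and 4 lower in KO_drug versus Het (12.3% and 7.97%). KO libraries enter both of the first comparisons, in opposite roles, so the opposite signs in them are not independent.

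Together the 10 mRNAs made up 0.344 ± 0.00539% of total counts, without TMM scaling, in KO_drug, 0.270 ± 0.0394% in KO and 0.338 ± 0.0326% in Het livers (SD, n = 4 each). With TMM scaling their sum was 3572 ± 179 CPM in KO_drug, 2215 ± 368 CPM in KO and 4032 ± 802 CPM in Het livers. Cyp7a1, Cyp27a1, Akr1d1 and Slc27a5 both fell in KO versus Het and rose in KO_drug versus KO. Cyp7b1, Hsd3b7, Amacr and Baat fell in KO versus Het and did not pass the test in KO_drug versus KO. Under TMM scaling Acox2 passed in the comparisons that include the agonist and not in KO versus Het, and Cyp8b1 passed in none.

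**Figure D1:**
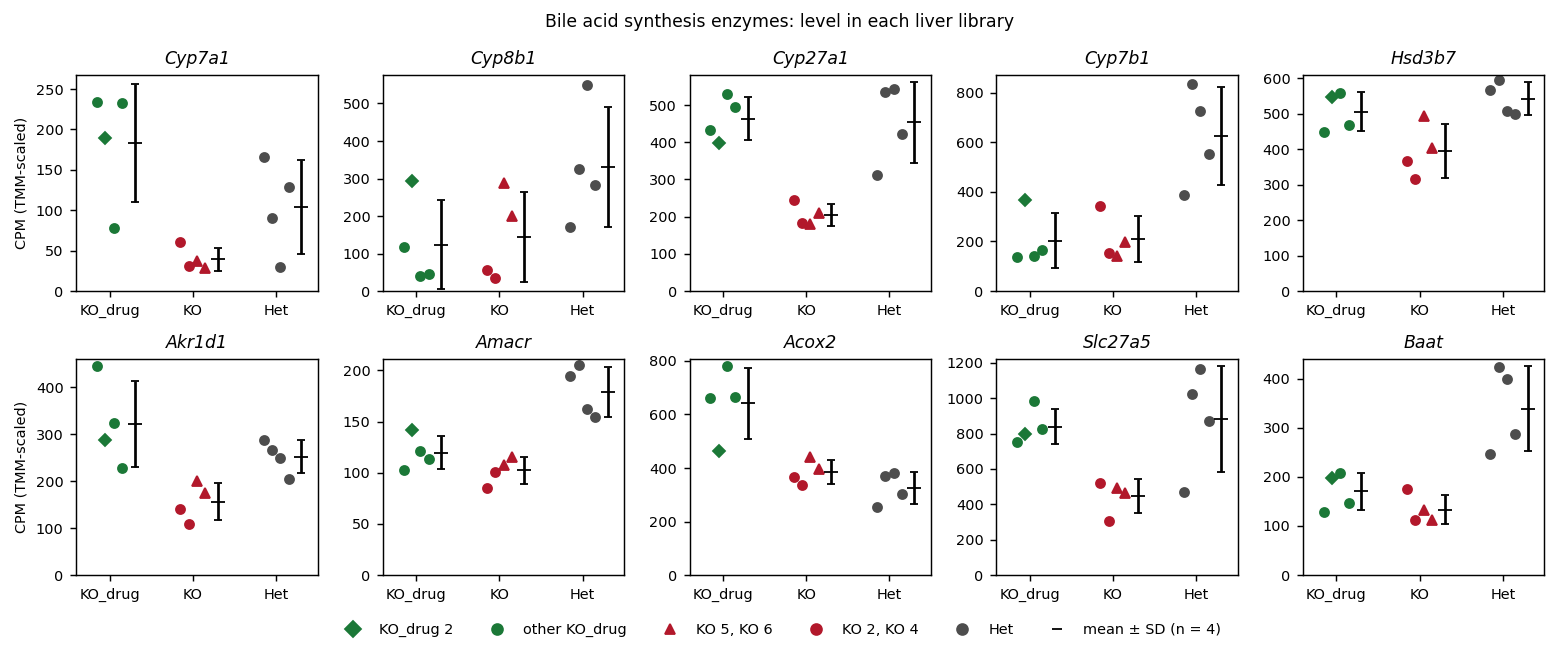
CPM (TMM-scaled, linear axis from 0) of each enzyme in every library, by group, with black marks for the mean ± SD (n = 4). The diamond is KO_drug 2 and the triangles are KO 5 and KO 6; in the Cyp7a1 panel every KO_drug liver (78.6 to 234 CPM) lies above every KO liver (29.0 to 60.3 CPM).

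Counting genes by whether the 4 libraries of a group overlap the other 4 gave a like picture. In KO versus Het, 6 enzymes had every KO value below every Het value (Cyp27a1, Cyp7b1, Akr1d1, Hsd3b7, Amacr and Baat), where 17.1% of all tested genes did so and 22.2% did the reverse. In KO_drug versus KO, 5 had every KO_drug value above every KO value, beside 11.4% of all tested genes, with 12.5% wholly below. In KO_drug versus Het, 3 lay wholly below, beside 11.0%, and Acox2 wholly above, beside 13.6%.

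**Figure D2:**
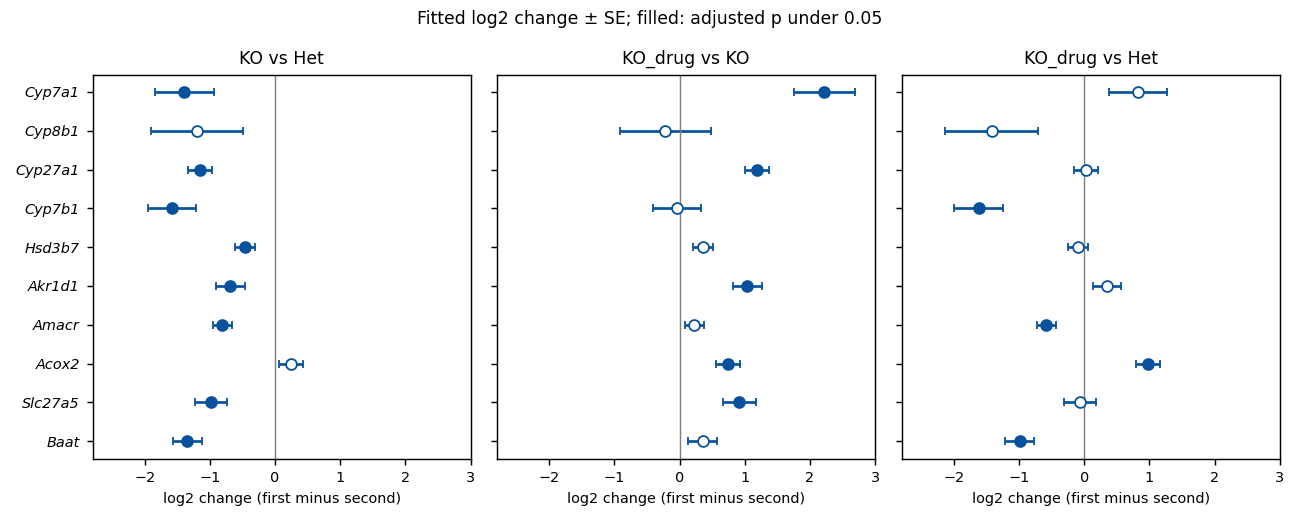
Log2 change of each enzyme in the 3 comparisons, with bars of 1 SE from edgeR and filled points for adjusted p under 0.05. In KO versus Het the points run from -1.58 (Cyp7b1) to 0.24 (Acox2), and in KO_drug versus KO from -0.22 (Cyp8b1) to 2.22 (Cyp7a1).

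Cyp7a1 (chr4:6265612-6275632; coordinates of genes are RefSeq's on GRCm38.p6, the assembly that mm10 names) had the largest log2 change of the 10 in KO_drug versus KO. Its level was 234, 189, 78.6 and 232 CPM in KO_drug 1 to 4. It was 60.3, 31.3, 37.0 and 29.0 CPM in KO 2, 4, 5 and 6, and 166, 90.4, 29.3 and 129 CPM in Het 1 to 4. KO_drug and KO livers did not overlap, while Het livers spread 5.65-fold and Het 3 lay among the KO livers. Cyp7a1 was 4.65-fold higher in KO_drug than in KO (log2 change 2.22, SE 0.47, adjusted p = 0.00632) and 2.63-fold lower in KO livers than in Het livers (-1.39, SE 0.46, adjusted p = 0.0264). The second call did not hold when any of 5 single libraries was left out (Het 1, Het 4, KO 4, KO 5 or KO 6, with adjusted p of 0.0563 to 0.0862). KO_drug and Het livers were not told apart (0.82, 95% interval -0.14 to 1.79, adjusted p = 0.220).

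Cyp8b1 (chr9:121914356-121916305) is the 12-alpha-hydroxylase that directs synthesis to cholic acid, and it passed in no comparison. Its level was 117, 293, 40.1 and 45.1 CPM in KO_drug 1 to 4, 55.0, 34.1, 287 and 201 CPM in KO 2, 4, 5 and 6, and 169, 324, 550 and 282 CPM in Het 1 to 4. The KO values fell 8.41-fold apart, with KO 5 and KO 6, the libraries with Xist, at the upper end. KO_drug 2, the library with low Abcg5, was the highest of its group. The log2 change was -1.20 in KO versus Het (95% interval -2.73 to 0.33, adjusted p = 0.196) and -0.22 in KO_drug versus KO (-1.73 to 1.29, adjusted p = 0.856). Without KO 5 and KO 6 it was called lower in KO versus Het (-2.96, adjusted p = 0.0165), and in KO_drug versus KO its direction turned (1.51, not called). Without KO_drug 2 it was called lower in KO_drug versus Het (-2.30, adjusted p = 0.0368). The part of sex in this was not tested.

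Akr1d1 (chr6:37529978-37574921) is the 5-beta-reductase that fixes the bend between the first rings of the sterol. It was at 444, 287, 324 and 227 CPM in KO_drug 1 to 4, 141, 109, 201 and 175 CPM in KO 2, 4, 5 and 6, and 287, 266, 249 and 205 CPM in Het 1 to 4. Every KO liver was below every liver of the other groups, by a small margin to Het 4. Akr1d1 was 2.05-fold higher in KO_drug than in KO (log2 change 1.04, SE 0.22, adjusted p = 0.00715) and 1.61-fold lower in KO livers than in Het livers (-0.69, SE 0.22, adjusted p = 0.0249). The fall in KO lost its call without Het 1, Het 2, KO 2 or KO 4 (adjusted p 0.0514 to 0.0719). In KO_drug versus Het the log2 change was 0.35 (adjusted p = 0.296).

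Hsd3b7 (chr7:127800609-127803802), which oxidises the 3-beta-hydroxyl group after the first hydroxylation, moved least among the enzymes that fell in KO livers. It was at 448, 546, 557 and 468 CPM in KO_drug 1 to 4, 366, 315, 493 and 404 CPM in KO 2, 4, 5 and 6, and 566, 596, 508 and 499 CPM in Het 1 to 4. It was 1.37-fold lower in KO livers than in Het livers (-0.46, SE 0.15, adjusted p = 0.0293), and that call was lost without Het 2, KO 2, KO 4 or KO 6 (adjusted p 0.0531 to 0.0865). The log2 change in KO_drug versus KO was 0.36 (95% interval 0.03 to 0.69, adjusted p = 0.120), and it was called higher without KO 5 (adjusted p = 0.0468).

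Cyp27a1 (chr1:74713148-74737897) is the mitochondrial sterol 27-hydroxylase and serves both pathways. Its level was 433, 399, 529 and 494 CPM in KO_drug 1 to 4, 245, 182, 179 and 211 CPM in KO 2, 4, 5 and 6, and 311, 536, 542 and 423 CPM in Het 1 to 4. The KO livers lay wholly below both other groups, and KO_drug livers lay within the range of Het livers. Cyp27a1 was 2.27-fold higher in KO_drug than in KO (log2 change 1.18, SE 0.19, adjusted p = 0.00178) and 2.22-fold lower in KO livers than in Het livers (-1.15, SE 0.19, adjusted p = 0.000445). Both calls held in every fit that left out 1 library. In KO_drug versus Het the log2 change was 0.03 (95% interval -0.36 to 0.43).

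Cyp7b1 (chr3:18071944-18243890, overlapping the annotated gene Gm23686) is the oxysterol 7-alpha-hydroxylase of the alternative pathway, and in mouse liver it is known to be higher in males. It was at 139, 367, 140.4 and 167 CPM in KO_drug 1 to 4, 342, 154, 142 and 198 CPM in KO 2, 4, 5 and 6, and 389, 836, 725 and 551 CPM in Het 1 to 4. Every Het liver lay above every knockout liver, fed the agonist or not. It was 2.99-fold lower in KO livers than in Het livers (-1.58, SE 0.37, adjusted p = 0.00458) and, in KO_drug livers, 3.08-fold lower than in Het livers (-1.62, SE 0.37, adjusted p = 0.00746). The log2 change in KO_drug versus KO was -0.04, with a 95% interval of -0.82 to 0.74, which leaves room for changes of either sign. KO 5, with little Ddx3y, had the lowest KO value, and KO 6 lay inside the range of KO 2 and KO 4.

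Amacr (chr15:10981756-10996624), a racemase that sets the side chain's stereochemistry for peroxisomal oxidation, was tightly grouped. It was at 103, 142, 121 and 113 CPM in KO_drug 1 to 4, 85.0, 101, 108 and 115 CPM in KO 2, 4, 5 and 6, and 194, 206, 162 and 155 CPM in Het 1 to 4. Both knockout groups lay wholly below Het livers. Amacr was 1.75-fold lower in KO livers than in Het livers (-0.81, SE 0.14, adjusted p = 0.000807) and, in KO_drug livers, 1.50-fold lower than in Het livers (-0.58, SE 0.14, adjusted p = 0.0110). Under total-count scaling both calls were lost, at -0.29 in KO versus Het (adjusted p = 0.120) and -0.41 in KO_drug versus Het (adjusted p = 0.0734). The log2 change in KO_drug versus KO was 0.23 (95% interval -0.08 to 0.53, adjusted p = 0.288).

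Acox2 (chr14:8225511-8259019), the peroxisomal oxidase of branched side chains, was the one enzyme of the 10 called higher in KO_drug than in Het livers. It was at 661, 462, 782 and 665 CPM in KO_drug 1 to 4, 368, 337, 441 and 396 CPM in KO 2, 4, 5 and 6, and 254, 369, 379.6 and 303 CPM in Het 1 to 4. KO and Het livers overlapped, and all KO_drug livers lay above both. Acox2 was 1.67-fold higher in KO_drug than in KO (log2 change 0.74, SE 0.18, adjusted p = 0.0140) and 1.97-fold higher in KO_drug than in Het (0.98, SE 0.18, adjusted p = 0.00197). The log2 change in KO versus Het was 0.24 (95% interval -0.15 to 0.63, adjusted p = 0.309), and scaled to total counts it was called higher (0.78, adjusted p = 0.00113). The same scaling ended the call in KO_drug versus KO (0.40, adjusted p = 0.0696) and left that in KO_drug versus Het.

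Slc27a5 (chr7:12988346-12998192), the bile acid CoA ligase, had the highest or next to highest level per length of the 10 in each group. It was at 753, 798, 984 and 824 CPM in KO_drug 1 to 4, 520.2, 304, 494 and 465 CPM in KO 2, 4, 5 and 6, and 470, 1021, 1163 and 869 CPM in Het 1 to 4. KO_drug and KO livers did not overlap, and Het 1 lay among the KO livers. It was 1.88-fold higher in KO_drug than in KO (log2 change 0.91, SE 0.25, adjusted p = 0.0230) and 1.98-fold lower in KO livers than in Het livers (-0.98, SE 0.25, adjusted p = 0.00741). The rise lost its call without KO 4 (adjusted p = 0.0720) or KO_drug 3 (adjusted p = 0.0671), and without both KO 5 and KO 6 (adjusted p = 0.0526).

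Baat (chr4:49489416-49507915, overlapping the annotated gene Gm32894) transfers the activated bile acid to its amino acid, the step after Slc27a5. It was at 129, 198, 208 and 147 CPM in KO_drug 1 to 4, 176, 113, 133 and 111 CPM in KO 2, 4, 5 and 6, and 246, 423, 399.6 and 288 CPM in Het 1 to 4. All Het livers lay above all knockout livers. Baat was 2.54-fold lower in KO livers than in Het livers (-1.35, SE 0.22, adjusted p = 0.000496) and, in KO_drug livers, 1.99-fold lower than in Het livers (-0.99, SE 0.22, adjusted p = 0.00620). It was not called in KO_drug versus KO (0.35, 95% interval -0.12 to 0.83, adjusted p = 0.275), although Slc27a5 was. A difference between these 2 changes was not tested.

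Levels of different genes were compared on the deposited FPKM, which divides by transcript length. Mean FPKM in KO_drug livers ran from 277 (Slc27a5), 213.5 (Hsd3b7) and 201 (Acox2) down to 35.8 (Amacr) and 34.5 (Cyp7a1). In KO livers Hsd3b7 (214) and Slc27a5 (188) led, and Cyp7a1 was last at 9.33, with a range of 6.45 to 14.1. In Het livers Slc27a5 (251), Hsd3b7 (204) and Cyp7b1 (192) led, and Cyp7a1 was last at 17.7 (4.40 to 31.6). Few neighbours in these orders had ranges over the 4 libraries that did not overlap. In KO_drug livers only Slc27a5 and Hsd3b7, and Cyp27a1 and Akr1d1, had such ranges. In KO livers Acox2 and Cyp27a1, Akr1d1 and Amacr, and Amacr and Cyp7a1 did, and in Het livers Amacr and Cyp7a1. Compared within each library, 3 more orders held in all 4 Het livers although the ranges overlapped. These were Cyp7b1 above Cyp27a1, Cyp27a1 above Baat and Akr1d1 above Amacr. Acox2, next after Slc27a5 and Hsd3b7 in KO_drug (201) and KO livers (155), averaged 89.4 FPKM in Het livers, below Cyp8b1 (112) and Baat (117).

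A ratio within a library does not depend on how the library is scaled, and 2 ratios were examined, both chosen after the data were seen. The ratio of Cyp7a1 to Cyp7b1 FPKM sets the first hydroxylase of the classic pathway against the oxysterol hydroxylase of the alternative one, which acts after Cyp27a1. It was 0.876, 0.268, 0.291 and 0.722 in KO_drug 1 to 4, 0.0914, 0.106, 0.135 and 0.0758 in KO 2, 4, 5 and 6, and 0.221, 0.0561, 0.0210 and 0.121 in Het 1 to 4. All KO_drug livers lay above all others, while KO and Het livers overlapped. The mean log2 ratio was higher by 2.24 in KO_drug than in KO and by 2.65 in KO_drug than in Het. In both, the two-sided exact permutation p was 0.0286, the smallest that 4 against 4 can give, and 0.0858 after Benjamini-Hochberg adjustment over the 6 tests of the 2 ratios. KO and Het livers differed by 0.41 (exact p = 0.657, adjusted 0.743). None of the p-values of the 2 ratios allows for their choice after the data were seen. As 0.0286 is the floor, an adjusted p under 0.05 would need several of the 6 tests to reach it.

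The ratio of Cyp8b1 to Cyp7a1 was 1.07, 3.32, 1.09 and 0.415 in KO_drug 1 to 4, 1.95, 2.33, 16.6 and 14.9 in KO 2, 4, 5 and 6, and 2.19, 7.68, 40.1 and 4.68 in Het 1 to 4. KO_drug livers overlapped both other groups. The mean log2 ratio differed by -2.36 in KO_drug versus KO (two-sided exact permutation p = 0.0857, adjusted 0.129), or by -0.92 without KO 5 and KO 6, and by -0.37 in KO versus Het (exact p = 0.743, adjusted 0.743). In KO_drug versus Het the exact p was 0.0571 (adjusted 0.114), so none passed the threshold.

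**Figure D3:**
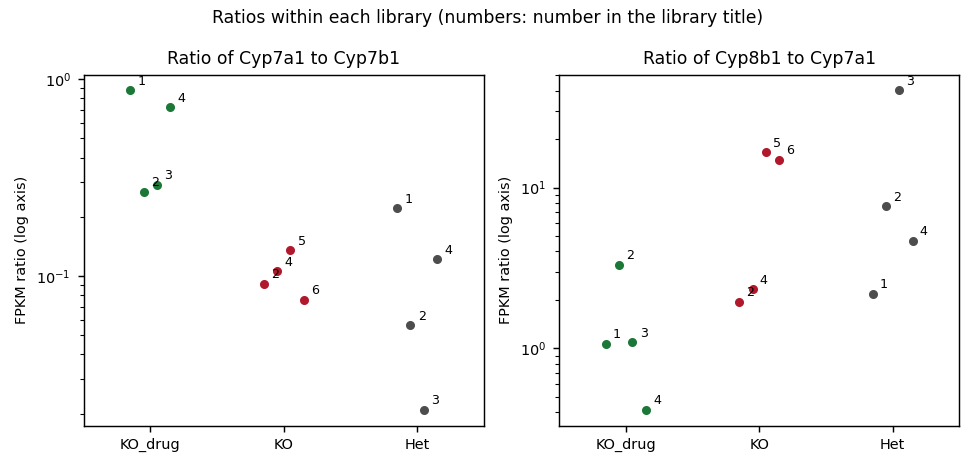
FPKM ratios of Cyp7a1 to Cyp7b1 and of Cyp8b1 to Cyp7a1 on a log axis, one point per library, with the number in the library's title beside it. Cyp7a1 to Cyp7b1 runs from 0.268 to 0.876 in KO_drug and from 0.0758 to 0.135 in KO livers.

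Scaling bears on all levels in CPM. Under total counts in place of TMM, the median of all tested genes moved to 0.54 in KO versus Het, to -0.36 in KO_drug versus KO and to 0.18 in KO_drug versus Het. The 3 enzymes called lower in KO versus Het under it were Cyp27a1, Cyp7b1 and Baat, and the 1 called higher was Acox2. Akr1d1 (-0.18), Amacr (-0.29), Slc27a5 (-0.43) and Cyp7a1 (-0.93) lost their calls there, and Hsd3b7 turned to 0.06, all below the 0.54 of the median gene. In KO_drug versus KO, Cyp7a1, Cyp27a1, Akr1d1 and Slc27a5 were called higher under total counts too, and Acox2 was not.

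**Figure D4:**
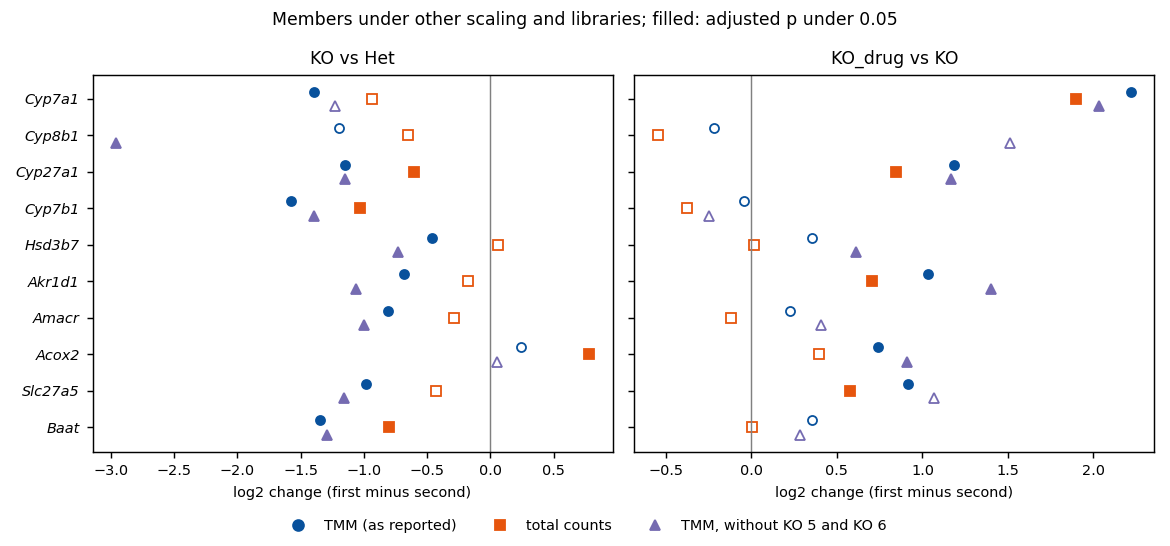
Log2 change of each enzyme in KO versus Het and in KO_drug versus KO under TMM scaling (circles), total-count scaling (squares) and TMM scaling without KO 5 and KO 6 (triangles), filled where adjusted p was under 0.05. Cyp8b1 in KO versus Het lies at -1.20 with all libraries and at -2.96 without KO 5 and KO 6.

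Of 13 other genes of synthesis, side-chain shortening and electron supply, 12 had enough counts to be tested. Between KO and Het livers, 6 fell and 0 rose by edgeR (7 and 0 at unadjusted p under 0.05, 6 and 0 by DESeq2), and in KO_drug versus KO 8 rose and 0 fell (8 and 0 unadjusted, 8 and 0 by DESeq2). Cyp46a1, counted among the 6 and the 8, was at low levels (0.41 CPM in KO_drug, 0.03 CPM in KO and 0.93 CPM in Het livers). Of all tested genes, 17.7% were called lower and 23.0% higher in KO versus Het, and 8.80% higher and 11.0% lower in KO_drug versus KO. Scaled to total counts, 5 of the 12 were lower and 2 higher in KO versus Het, beside 3.44% and 51.5% of all tested genes. In KO_drug versus KO 7 were then higher and 0 lower, beside 2.68% and 29.1%. Without KO 5 and KO 6 the TMM count in KO_drug versus KO was 5 higher (background 8.54%). Without KO_drug 2 it was 6 (background 6.85%). Fdx1, the ferredoxin that passes electrons to Cyp27a1, averaged 73.1 CPM in KO_drug, 38.8 CPM in KO and 88.1 CPM in Het livers. Its log2 change was -1.18 in KO versus Het (adjusted p = 4.3e-05) and 0.91 in KO_drug versus KO (adjusted p = 0.00151). Slc27a2, an acyl-CoA synthetase of peroxisomes and endoplasmic reticulum, averaged 1048 CPM in KO_drug, 432 CPM in KO and 1188 CPM in Het livers, with a log2 change of -1.46 in KO versus Het (adjusted p = 0.000398) and of 1.28 in KO_drug versus KO (adjusted p = 0.00342).

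Cyp2c70, which makes muricholic acids in mice, averaged 719.5 CPM in KO_drug, 369 CPM in KO and 923 CPM in Het livers. It fell in KO versus Het (-1.32, adjusted p = 0.000492) and rose in KO_drug versus KO (0.96, adjusted p = 0.00891). Por, the reductase that supplies electrons to microsomal P450 enzymes such as Cyp7a1, followed another course. It was at 725, 207, 502 and 639 CPM in KO_drug 1 to 4, and averaged 202 CPM in KO and 130 CPM in Het livers. KO_drug 2, which has low Abcg5, was again the lowest of its group, inside the KO range. Por rose in KO_drug versus KO (1.36, adjusted p = 0.0220), and its change in KO versus Het was 0.63 (adjusted p = 0.187).

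Among 17 regulators of the pathway, 10 fell in KO versus Het and 0 rose (10 and 0 unadjusted, 10 and 0 by DESeq2). Of all tested genes, 17.7% were called lower and 23.0% higher. Under total counts 4 of the 17 fell and 4 rose, beside 3.44% and 51.5% of all tested genes, so the count depends on the scaling. Hnf4a, a nuclear receptor of hepatocytes, averaged 485 CPM in KO_drug, 438.5 CPM in KO and 837.5 CPM in Het livers, and its log2 change was -0.93 in KO versus Het (adjusted p = 0.000194). Rxra, the partner of many nuclear receptors, fell by 0.81 (adjusted p = 0.000350), and the hepatocyte transcription factors Cebpa (-1.36, adjusted p = 0.00173) and Foxa2 (-1.50, adjusted p = 0.00258) fell too. In KO_drug versus KO 2 of the 17 rose and 0 fell, near the 8.80% of all tested genes called higher. They were Nr1i2 (PXR, 0.77, adjusted p = 0.0225) and Ppara (0.98, adjusted p = 0.0184). The count was 5 and 0 unadjusted, 4 and 0 by DESeq2 and 0 and 0 under total counts. Without KO_drug 2 it was 1 higher. The bile acid receptor Nr1h4 and its target Nr0b2 were singled out after their values were seen. Nr1h4 averaged 73.4 CPM in KO_drug, 68.5 CPM in KO and 115 CPM in Het livers, and fell in KO versus Het (-0.74, adjusted p = 0.00501). Nr0b2 averaged 17.3 CPM in KO_drug, 11.0 CPM in KO and 34.3 CPM in Het livers, and fell as well (-1.63, adjusted p = 0.00645).

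Of the bile acid transporters, 11 of 12 were tested. Between KO and Het livers 5 fell, beside 17.7% of all tested genes, and 2 rose, near the 23.0% called higher. The uptake transporter Slc10a1 (93.4 CPM in KO and 509.8 CPM in Het livers, -2.45, adjusted p = 0.000184) fell. So did the bile salt export pump Abcb11 (346 CPM in KO and 902 CPM in Het livers, -1.38, adjusted p = 0.000154). Those that rose were Abcc4 (16.2 CPM in KO and 3.27 CPM in Het livers, 2.31, adjusted p = 0.000135) and Slc51b. Slc51b was at low levels (1.10 CPM in KO and 0.05 CPM in Het livers, 4.27, adjusted p = 0.000501). Under total counts 5 were lower and 5 higher, beside 3.44% and 51.5% of all tested genes. The agonist comparison, KO_drug versus KO, had 4 that rose and 0 that fell, beside 8.80% and 11.0% of all tested genes. The counts were 7 and 0 unadjusted and 6 and 0 by DESeq2. Under total counts they were 3 and 1, beside 2.68% and 29.1%.

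The 5 genes whose log2 CPM followed the mean of the 10 enzymes most closely over the 12 libraries were Ces1f (Pearson r = 0.970), Cyp2j5 (0.965), Mccc2 (0.965), Adk (0.965) and Mpst (0.960). These are descriptions over libraries that share group structure and scaling, and carry no test.

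Markers of cell types moved with the same comparisons. As background, 17.7% of all tested genes were called lower and 23.0% higher in KO versus Het. In KO_drug versus KO 8.80% were called higher and 11.0% lower. Of 14 hepatocyte markers, 10 fell in KO versus Het, with a median log2 change of -0.89 beside -1.07 for the enzymes, and 4 rose in KO_drug versus KO, with a median of 0.58 beside 0.55. Under total counts 5 of the 14 fell in KO versus Het, beside 3.44% of all tested genes. In KO_drug versus KO 2 then rose and 1 fell, beside 2.68% and 29.1%. Without KO 5 and KO 6, 7 of the 14 rose in KO_drug versus KO (background 8.54%), with a median of 0.88 beside 0.99. Their summed level was 91630 to 111467 CPM in KO_drug, 51718 to 90576 CPM in KO and 101716 to 172684 CPM in Het livers. All 12 macrophage markers rose in KO versus Het and 9 fell in KO_drug versus KO, with summed levels of 565 to 1265 CPM in KO_drug, 1216 to 2654 CPM in KO and 497 to 675 CPM in Het livers. Of 9 stellate cell and matrix markers, 5 rose in KO versus Het, all of them genes of matrix proteins, and 6 fell in KO_drug versus KO. Their summed levels were 234 to 275 CPM in KO_drug, 419 to 704 CPM in KO and 272 to 308 CPM in Het livers. The matrix gene Dcn made up most of the KO sum (means 341 and 512 CPM). Of 8 cholangiocyte markers 3 rose and 1 fell in KO versus Het (3 and 0 without KO 5 and KO 6). Their sums were 39.5 to 52.5 CPM in KO_drug, 67.2 to 157 CPM in KO and 27.8 to 31.9 CPM in Het livers. Spp1 made up most of that KO sum (means 76.7 and 98.6 CPM). In KO versus Het, 6 of 7 tested lymphocyte and 6 of 7 neutrophil markers rose. Their levels were low, with mean sums of 10.5 CPM in KO and 1.85 CPM in Het livers for lymphocyte markers. For neutrophil markers they were 46.6 and 7.29 CPM. Of 7 endothelial markers 3 rose and 0 fell, but their median log2 change was -0.13. The endothelial sums averaged 403 CPM in KO and 400 CPM in Het livers. No marker of these lists was at 0 in every library of a group. In whole liver, fewer hepatocytes and less of these mRNAs per hepatocyte cannot be told apart, and the part of these shifts in the enzyme changes was not tested.

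Time of day and sex-biased genes were read in the same way. Of 14 clock genes 3 fell in KO versus Het and 0 rose (3 and 0 unadjusted, 3 and 0 by DESeq2, 1 and 0 under total counts). Beside the 17.7% of all tested genes called lower, 3 of 14 is near the background. They were Cry1, Hlf and Clock, and 0 passed in KO_drug versus KO (4 higher and 0 lower unadjusted, 2 higher and 0 lower by DESeq2, 0 higher and 1 lower under total counts, and 1 higher and 0 lower by edgeR without KO_drug 2). Dbp was singled out after its values were seen. This gene, an output of the clock and a known activator of Cyp7a1 in rat, was at 0.30, 37.9, 2.48 and 17.9 CPM in KO_drug 1 to 4, 6.65, 3.27, 0.73 and 3.46 CPM in KO 2, 4, 5 and 6, and 7.01, 1.45, 3.01 and 6.73 CPM in Het 1 to 4. KO 2 and Het 1 had the most Dbp of their groups and also the most Cyp7a1 (60.3 and 166 CPM). The livers with the least Dbp did not have the least Cyp7a1. KO 5 had 37.0 CPM of Cyp7a1, above KO 4 (31.3 CPM) and KO 6 (29.0 CPM), and Het 2 had 90.4 CPM, above Het 3 (29.3 CPM). In KO_drug the liver with the least Dbp had the most Cyp7a1 (KO_drug 1, 234 CPM), while KO_drug 3, with little Dbp, had the least Cyp7a1 (78.6 CPM). Of 11 male-biased genes other than Cyp7b1, 8 fell in KO versus Het, beside 17.7% of all tested genes. Of 8 tested female-biased genes 3 rose, beside 23.0%. Under total counts 6 of the 11 male-biased genes fell and 1 rose, and 6 of the 8 female-biased genes rose. The background there was 3.44% lower and 51.5% higher. The median log2 change of the 8 was 2.98 with all libraries and 0.15 without KO 5 and KO 6. Without those libraries 3 of the 8 were still called higher, beside 19.5% of all tested genes. Without KO 5 and KO 6, 6 of the 11 male-biased genes fell (background 15.6%), and Cyp7a1 was not called (-1.23, adjusted p = 0.132). The part of sampling time and sex in these results was not tested.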

How the data were processed

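Stranded total RNA libraries of 12 whole livers were sequenced. The authors deposited read counts and FPKM per gene in 1 table, on mm10. FastQC 0.11.7 and StringTie 2.1.3b are named in the submitters' processing notes. No source used here names the aligner or annotation release or says whether counting used strand, so overlapping and antisense genes may share counts. In the same table, 3 unnamed columns were not used.

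Counts were fitted for all 12 libraries together in edgeR 4.0.16 (R 4.3.3) by the quasi-likelihood method with TMM scaling and filterByExpr (minimum count 10, minimum total 15), which set aside 11153 genes. Benjamini-Hochberg adjustment ran over the 13379 genes tested. The procedure was tested on simulated data. FPKM as deposited by the authors was used for comparing genes within a library. Ratios were compared by two-sided exact permutation tests. Alternatives were DESeq2 1.42.0, its size factors, total counts, no filter, fits of 2 groups, limma 3.58.1 on log2 FPKM with pseudocounts of 1 and 0.1, a replicate block, and leaving out libraries. Intervals are 95%.

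All 10 enzymes are named. From the other lists the text draws on direct partners of an enzyme and on the genes with the smallest adjusted p. The latter are up to 4 in KO versus Het and up to 4 in KO_drug versus KO. Nr1h4, Nr0b2 and Dbp fall outside this rule and were chosen after their values were seen. Cyp46a1, named for its low level, and Xist, which was not tested and has no adjusted p, fall outside it too. The genes most like the enzymes are the 5 with the highest correlation to their mean among tested genes with at least 1 CPM. The enzymes and lists were chosen with earlier results of these data known. Nothing in the labels says that libraries of a group came from separate litters or extractions, so p-values measure the spread between these libraries.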

Additional observations from a re-analysis of the deposited data

Results flagged for a closer look

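Outliers were looked for in 36 groups of 4 values (the 10 enzymes and 2 ratios in 3 groups), of which chance flags about 1 in 20. Cyp7b1 in KO_drug livers was flagged because KO_drug 2, at 366.7 CPM, lay far above the other 3. Its gap to the nearest library was 0.876 of the group's range, above Dixon's 95% critical value. The Cyp8b1 to Cyp7a1 ratio in Het livers was flagged because Het 3 reached 40.14, with a gap of 0.855 of the range.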

How the results depend on the processing

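DESeq2, its size factors, no filter and fits of only the 2 groups compared left all 30 enzyme calls on the same side of the threshold, in the same direction. Total-count scaling and limma on log2 FPKM (pseudocounts 1 and 0.1) each gave 3 enzymes lower and 1 higher in KO versus Het. The median of the 10 was then -0.52 by total counts and -0.49 by FPKM in KO versus Het, 0.21 and 0.19 in KO_drug versus KO, and 0.11 and 0.13 in KO_drug versus Het. By total counts and FPKM, Hsd3b7 turned to 0.057 and 0.064 in KO versus Het and to 0.071 and 0.076 in KO_drug versus Het, Amacr to -0.12 and -0.13 in KO_drug versus KO, and Slc27a5 to 0.14 and 0.18 in KO_drug versus Het. Baat turned to -0.0051 and -0.0050 in KO_drug versus KO by FPKM. Without KO 5 and KO 6 the median in KO_drug versus KO was 0.99, and Cyp8b1 there was 1.51.

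Leaving out 1 library at a time gave 5 to 8 enzymes lower in KO versus Het (5 without KO 4), and medians of -0.19 to -0.023 in KO_drug versus Het. Ranges that crossed 0 were, in KO_drug versus KO, Cyp8b1 (-1.10 to 0.35) and Cyp7b1 (-0.49 to 0.30). In KO_drug versus Het they were Cyp27a1 (-0.11 to 0.13) and Slc27a5 (-0.28 to 0.090). In KO versus Het they were the log2 ratios of Cyp7a1 to Cyp7b1 (-0.20 to 0.93) and of Cyp8b1 to Cyp7a1 (-0.97 to 0.43).

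Whether the numbers in the titles pair the libraries is not settled here. Deviations of 8 same-numbered pairs correlated at -0.0698 to 0.1647 (median 0.1005). The other 40 pairs correlated at -0.2356 to 0.2564 (median -0.04243), so the ranges overlapped. With a replicate block, 2 enzymes were higher in KO_drug versus Het (Cyp7a1 was added). Cyp8b1 was then called lower in KO versus Het (-3.06, adjusted p = 0.0213 by edgeR), and Acox2 was not called in KO_drug versus KO (0.80, adjusted p = 0.0714). The median in KO_drug versus KO was then 0.96, Cyp8b1 there was 1.39, and Slc27a5 in KO_drug versus Het was 0.0042. Where calls changed, the cause was not tested. The lowest count of an enzyme in any library was 555, so none lay near the count minimum of 10.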
